A study of Mus musculus with 7 samples.

Results

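The genes examined were the chemokine ligands and the chemokine receptors outside the CC class, chosen by symbol alone: every gene on the array whose symbol begins with Ccl, Cxcl, Xcl, Cx3cl, Cxcr, Xcr, Cx3cr or Ackr followed by a digit. The array carried 46 such genes out of 32585 genes or unnamed accessions, comprising 34 ligands and 12 receptors. The rule uses no measured value. Of the 56 family symbols in the RefSeq gene table, 10 had no probe: Cxcl11, Ccl27b, Ccl21a to Ccl21d and 4 Ccl16 or Ccl19 pseudogenes.

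Transcripts were profiled in group 2 innate lymphoid cells (ILC2s), tissue lymphocytes that lack antigen receptors and secrete type 2 cytokines. Mice were either Gfi1+/+ (wild type) or homozygous for Gfi1GFP, an allele in which a knocked-in GFP cassette abolishes Gfi1 function and reports its promoter activity. Mice of both genotypes were injected with IL-25 on 4 days, and on day 5 ILC2s were sorted from mesenteric lymph nodes as Lin-, Sca-1+, ICOS+, CD127+ and c-Kit+ cells. Both groups were then grown for 6 days before RNA was taken, with IL-2 and IL-25 at 50 ng/ml each and IL-7 at 10 ng/ml, so the values describe cytokine-expanded cells. A wild-type sample pooled 3 mice and a knockout sample 6, the allele was carried by the whole mouse and not deleted in ILC2s alone, and strain, age and sex are not given in the sources used here. There were 4 wild-type and 3 knockout samples, each on its own array against a universal mouse reference RNA. Values are log2 ratios, sample over reference, and differences are given as knockout minus wild type. Each sample was a separate pool of mice, so p-values measure the spread between pools, and 7 arrays limit the precision.

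Chemokines are small secreted proteins that direct the migration of leukocytes along gradients. They are classed as CC, CXC, XC or CX3C by the spacing of their first cysteines, and most signal through receptors coupled to inhibitory G proteins, after which receptor kinases and arrestins silence the receptor. Atypical receptors (Ackr) bind chemokines without G protein signalling and remove or redistribute them. ILC2s both respond to chemokines and, once activated, secrete some of them. Gfi1 is a zinc finger protein that represses transcription from sites with an AATC core.

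The share of probes well above background in the sample channel ranged from 67.4% to 80.9% over the arrays. The arrays came on 3 slides. Slide 1 held wild-type array 4 and knockout array 1, slide 2 held wild-type array 1 and knockout arrays 2 and 3, and slide 3 held wild-type arrays 2 and 3. Xist minus Ddx3y, which separates female from male pools, was 6.54 to 7.61 on wild-type arrays 3 and 4 and knockout array 3 and -1.75 to -0.94 on the other 4 arrays, so it divided both groups. The Gfi1 probe read 2.02 ± 0.23 (SD, n = 4) on the wild-type arrays and 4.28 ± 0.02 (SD, n = 3) on the knockout arrays. Since the allele leaves its promoter active, this probe does not check the labels. All 14 listed ILC2 markers were measured. In both groups 13 of them had a mean above the reference, and Thy1 was below it, at -0.83 in the wild type and -1.21 in the knockout. Il17rb rose by 1.85, while Gata3 fell by 0.93, Il1rl1 by 1.89, Areg by 0.42 and Ly6a by 0.72 in the knockout.

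Of the 46 genes, 37 were tested, which required a sample signal well above background on 3 or more arrays and 2 or more values in each group. The signal was well above background on all 7 arrays for 28 genes, on 1 or 2 arrays for 5 and on no array for 4. The 9 genes that were not tested are dealt with by their detection only. In limma, 4 of the 37 tested genes passed an adjusted p of 0.05, or 10.8% against 7.53% of all 25347 genes tested. All 4 were higher in the knockout, where 3.29% of all genes tested were called higher, and they were Xcl1, Cxcl2, Ccl27a and Cxcr3. Xcl1 passed the detection filter through the knockout arrays alone and so had to differ. Where signal was required on all 7 arrays, 2 of 28 members were called (Ccl27a and Cxcr3), against 8.2% of all genes then tested. No member was called lower, where 4.24% of all genes were. At an unadjusted p under 0.05 there were 9 higher and 3 lower, or 12 of 37 members beside 4950 of all 25347 genes, and eBayes with a variance trend and robust fitting also called 4 higher and 0 lower. The groups did not overlap for 8 members that were higher and 1 that was lower in the knockout, or 24.3% of those tested against 18.3% of all genes. The share called in either direction and the share without overlap lay somewhat above those of all genes, and the share called higher further above. They rest on 37 genes, including Xcl1, which had to differ, and were not tested against all genes. The median difference was 0.06 over the members and -0.01 over all genes tested. The median size of a difference was 0.16 for the members and 0.11 for all genes.

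**Figure D1:**
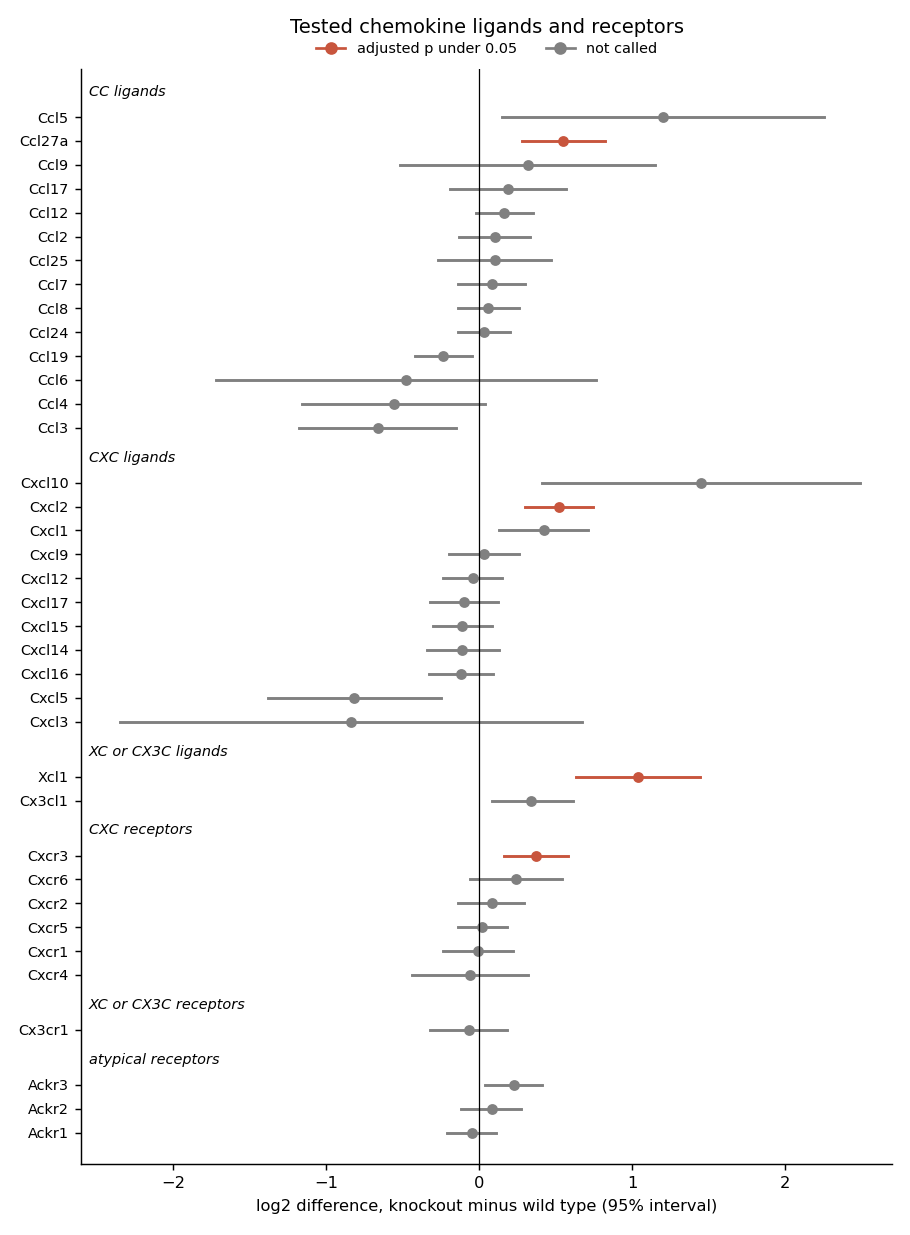
Log2 difference, knockout minus wild type, with its 95% interval from limma for each of the 37 tested genes, grouped by role. Xcl1, Cxcl2, Ccl27a and Cxcr3 are the called genes, and the intervals of Cxcl3, Ccl6, Cxcl10 and Ccl5 are wide.

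The 4 called genes are shown with the 250 bases before their RefSeq transcription start (build GRCm38.p6), written 5′ to 3′ on the gene's strand, because Gfi1 binds sites that contain AATC. Capitals mark AATC or its reverse complement GATT. Xcl1 lies on the minus strand (promoter chr1:164935523-164935772), Cxcl2 on the plus strand (chr5:90903649-90903898), Ccl27a on the minus strand (chr4:41774177-41774426, the upstream-most of 3 annotated starts) and Cxcr3 on the minus strand (chrX:101734148-101734397).
Xcl1: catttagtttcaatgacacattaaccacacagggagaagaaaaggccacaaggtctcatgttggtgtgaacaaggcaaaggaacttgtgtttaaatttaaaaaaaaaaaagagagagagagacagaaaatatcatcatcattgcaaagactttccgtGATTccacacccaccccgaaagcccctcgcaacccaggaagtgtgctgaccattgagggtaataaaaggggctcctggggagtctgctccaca
Cxcl2: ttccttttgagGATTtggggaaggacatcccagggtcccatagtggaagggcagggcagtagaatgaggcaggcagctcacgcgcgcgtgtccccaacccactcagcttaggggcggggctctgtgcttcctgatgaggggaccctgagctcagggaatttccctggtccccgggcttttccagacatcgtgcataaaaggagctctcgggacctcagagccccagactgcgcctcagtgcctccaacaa
Ccl27a: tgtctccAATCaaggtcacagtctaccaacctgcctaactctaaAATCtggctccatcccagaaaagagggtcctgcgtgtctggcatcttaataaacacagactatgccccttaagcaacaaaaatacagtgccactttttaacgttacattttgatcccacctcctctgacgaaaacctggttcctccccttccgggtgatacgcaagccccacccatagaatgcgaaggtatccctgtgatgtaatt
Cxcr3: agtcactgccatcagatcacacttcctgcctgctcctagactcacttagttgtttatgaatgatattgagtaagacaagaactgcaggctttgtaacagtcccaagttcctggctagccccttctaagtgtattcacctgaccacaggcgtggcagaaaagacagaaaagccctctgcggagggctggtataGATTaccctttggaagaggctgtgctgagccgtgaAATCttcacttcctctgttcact
The core occurs 1 time in the Xcl1 and Cxcl2 windows and 2 times in the Ccl27a and Cxcr3 windows shown, while the windows at the other starts of Ccl27a hold 0 and 1. It is a short motif: 69.0% of all 32851 promoters of this length hold it on either strand, and 32 of the 38 promoters listed for 35 members do (84.2%). The Cxcl2 window also holds 2 matches to the NF-kB consensus, searched on both strands, which 7.25% of all promoters and 21.1% of the members' promoters contain. Both Cxcl2 matches lie in the stretch gggaatttccc, on opposite strands, and overlap. The members with such a match were Ackr2, Ccl1, Ccl9, Ccl20, Cxcl1, Cxcl2, Cxcl3 and Cxcl10. These are matches of letters in a window and show no binding.

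Among the XC and CX3C ligands, Xcl1 rose. Xcl1 encodes lymphotactin, which NK cells and T cells secrete and which attracts the dendritic cells that carry its receptor Xcr1. Xcl1 read 0.20, 0.01, -0.06 and -0.01 on wild-type arrays 1 to 4 and 1.43, 1.21 and 0.57 on knockout arrays 1 to 3. The groups did not overlap, and knockout array 3 was the lowest of its group. Xcl1 was well above background on all 3 knockout arrays but none of the wild-type arrays, so it entered the test through the knockout arrays alone and had to differ, and the reference signal was above background on none of the 7 arrays. Its sample-channel signal averaged 6.06 in the wild type and 7.39 in the knockout on the log2 scale, 2.52-fold apart. With each wild-type array set no lower than its dimmest above-background probe, the knockout signal was 2.41-fold higher. That floor is not a detection limit: the Ccl1 probe, above background on no wild-type array, averaged 6.42 there. The 2.41-fold value is thus no firm lower bound. It was taken after loess and between-array normalization and is open to dye bias without a dye swap. The reference channel read 0.30 higher in the knockout, and the log ratio gave a 2.05-fold rise. The difference in the log ratio was 1.04 ± 0.18 (SE; limma adjusted p = 0.00813), a value that rests on a wild-type signal and a reference not above background. Slide 1 alone gave 1.44 and slide 2 alone gave 0.69, and slide as a fixed block gave 1.01 with limma adjusted p = 0.104. With that block 1.89% of all genes were called, against 7.53% without it. Over 20 alternatives the adjusted p ran from 0.00033 to 0.104, and it exceeded 0.05 with slide as a fixed block alone. With slide as a random block it was 0.00653. The size depended on the background treatment, at 1.64 with a normexp offset of 16 and 3.77 with the scanner's own log ratio.

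In bulk RNA, more cells of a type and more RNA per cell cannot be told apart. Of the NK cell markers, Ncr1 was well above background on no array, and none of the 4 tested (Eomes, Klrb1c, Klrd1 and Prf1) was called. Eomes, Klrb1c and Prf1 were well above background on every array, and Klrd1 on 3 wild-type and 3 knockout arrays. Eomes was higher in the knockout without overlap, by 0.31 (limma adjusted p = 0.0995). Klrb1c, Klrd1 and Prf1 differed by 0.06, 0.33 and 0.13. The summed linear ratio of the 4 was 4.14 to 4.34 on the wild-type arrays and 4.67 to 5.12 on the knockout arrays, without overlap. The 8 T cell markers, none called, summed to 11.2 to 23.1 on the wild-type and 14.5 to 27.5 on the knockout arrays, with Cd3d at 2.42 ± 0.91 (SD, n = 4) and 3.50 ± 0.58 (SD, n = 3). The part of either cell type in the rise of Xcl1 or of Cxcr3 was not tested.

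Cx3cl1 encodes fractalkine, a membrane-bound ligand of endothelium and epithelium. Its log2 ratio was -6.32, -6.29, -6.57 and -6.33 on wild-type arrays 1 to 4 and -6.00, -5.83 and -6.27 on knockout arrays 1 to 3. The knockout arrays lay above all wild-type arrays, but knockout array 3 nearly met wild-type array 2, and the difference of 0.34 ± 0.12 (SE) was not called (limma adjusted p = 0.131). Without knockout array 3 it was called (0.46, adjusted p = 0.0405), and over all alternatives the adjusted p ran from 0.0405 to 0.756.

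**Figure D2:**
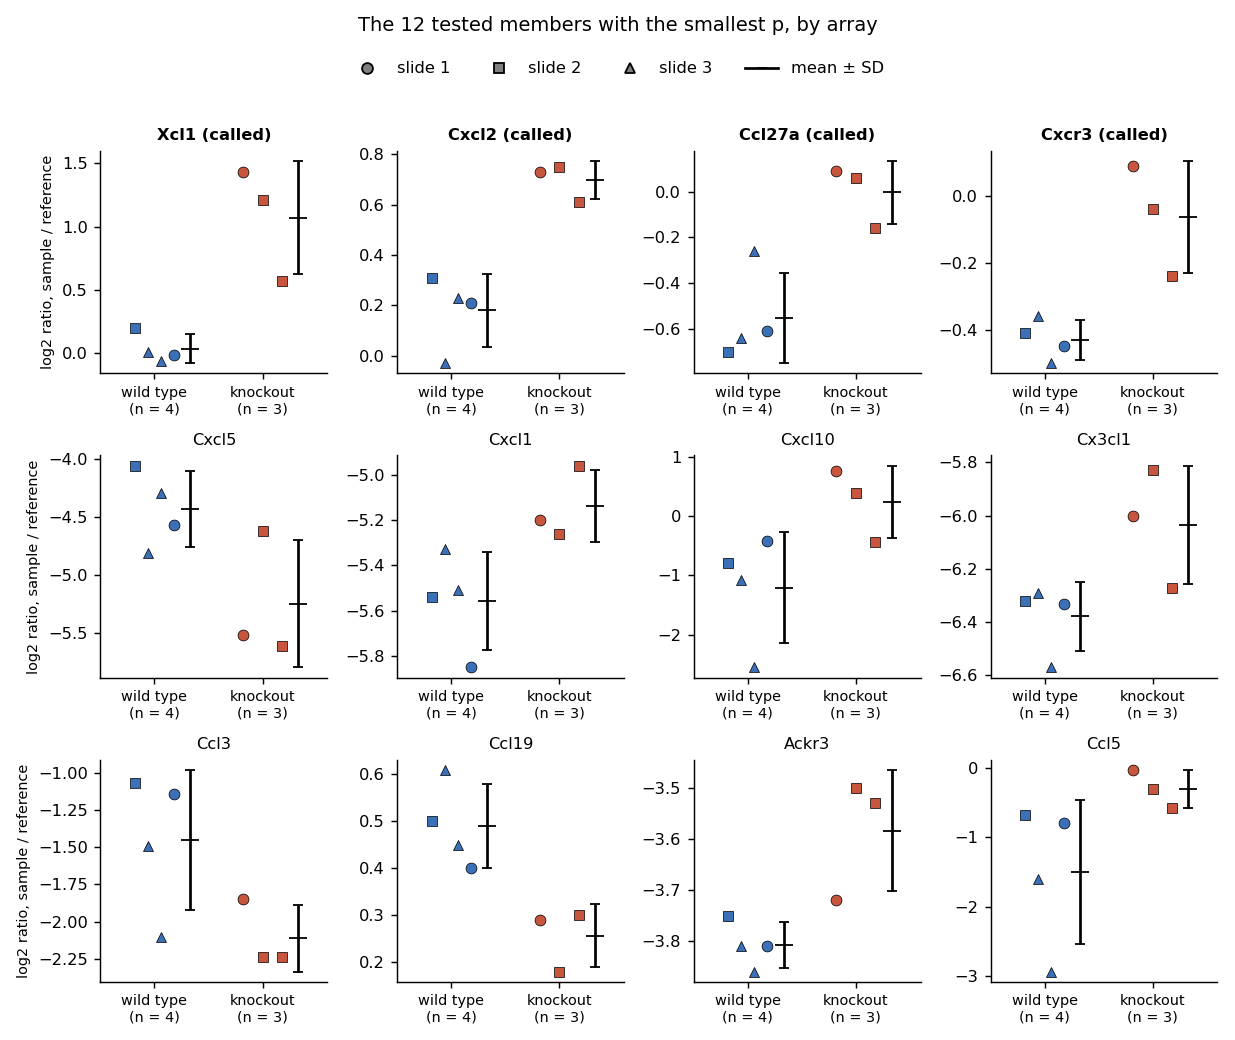
Log2 ratio of sample over reference on each array for the 12 tested members with the smallest p, with marker shape giving the slide and bars the mean ± SD. Wild-type and knockout arrays separate for Xcl1, Cxcl2, Ccl27a, Cxcr3, Cxcl1, Cx3cl1, Ackr3 and Ccl5 upward and for Ccl19 downward.

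Of 11 tested CXC ligands, Cxcl2 rose and none fell. Of the 12 CXC ligands on the array, 4, namely Cxcl1, Cxcl2, Cxcl3 and Cxcl5, signal through Cxcr2 and attract neutrophils. Cxcl2 read 0.31, -0.03, 0.23 and 0.21 on wild-type arrays 1 to 4 and 0.73, 0.75 and 0.61 on knockout arrays 1 to 3. The knockout values lay close together and above every wild-type value. The difference was 0.52 ± 0.10 (SE), a 1.43-fold rise (limma adjusted p = 0.0122), and slides 1 and 2 taken alone gave 0.52 and 0.37. Blocking on slide, it was 0.44 and no longer called (limma adjusted p = 0.192). The signal was not well above background on wild-type array 2. Without knockout array 2 the difference was 0.49 (adjusted p = 0.0517) and with the scanner's log ratio it was 1.26 (adjusted p = 0.058). The adjusted p ran from 0.00782 to 0.192 over 20 alternatives.

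Cxcl1, the neighbouring gene and a close relative of Cxcl2, pointed the same way without passing the test. Cxcl1 read -5.54, -5.33, -5.51 and -5.85 on wild-type arrays 1 to 4 and -5.20, -5.26 and -4.96 on knockout arrays 1 to 3. The groups did not overlap, and both were far below the reference. The difference was 0.42 ± 0.13 (SE; limma adjusted p = 0.0919). It passed with a normexp offset of 16 (0.63, adjusted p = 0.0212) and with the scanner's log ratio (0.92, adjusted p = 0.00916), out of 21 alternatives with adjusted p from 0.00916 to 0.791.

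Cxcl5 and Cxcl3, the other ligands of Cxcr2, had lower means in the knockout and were not called. Cxcl5 read -4.06, -4.81, -4.30 and -4.57 on wild-type arrays 1 to 4 and -5.52, -4.62 and -5.61 on knockout arrays 1 to 3. Knockout arrays 1 and 3 lay below all wild-type arrays and knockout array 2 lay among them. The difference was -0.82 ± 0.25 (SE; limma adjusted p = 0.0908). Without knockout array 2 it was -1.13 and called (adjusted p = 0.0147), with adjusted p from 0.0147 to 0.304 over the 21 alternatives. Cxcl3 fell into separate levels that cut across genotype: 5.23, 4.52, 5.20 and 5.20 on wild-type arrays 1, 3 and 4 and knockout array 2, and 2.95, 2.92 and 2.80 on wild-type array 2 and knockout arrays 1 and 3. Its difference was -0.84 ± 0.67 (SE; limma adjusted p = 0.579). The reference signal for Cxcl3 was well above background on 2 of the 7 arrays, so its ratios rest on a dim reference. Each slide, and each class of arrays by Xist minus Ddx3y, held both levels of Cxcl3. Knockout array 2, alone among knockout arrays, was high for both Cxcl3 and Cxcl5. Cxcr2, their receptor, was well above background on 2 wild-type arrays and 1 knockout array and differed by 0.08 (adjusted p = 0.757). None of the 4 tested neutrophil markers or the 7 tested macrophage and monocyte markers was called. The macrophage markers summed to a linear ratio of 4.71 to 5.42 on the wild-type arrays and 5.28 to 5.85 on the knockout arrays, with overlap, and their part in the rise of Cxcl2 was not tested. Markers of B cells, dendritic cells, mast cells, stromal cells and endothelium also gave 0 calls.

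Among the ligands of Cxcr3, the interferon-induced chemokines, Cxcl10 had a difference above 1 and was not called. Cxcl10 read -0.80, -1.07, -2.55 and -0.42 on wild-type arrays 1 to 4 and 0.76, 0.39 and -0.43 on knockout arrays 1 to 3. Wild-type array 3 was far below the other wild-type arrays, and knockout array 3 met wild-type array 4. The difference was 1.45 ± 0.46 (SE; limma adjusted p = 0.106), and it remained uncalled without wild-type array 3 (adjusted p = 0.0939). It was called when wild-type array 4 and knockout array 3 were left out together (2.05, adjusted p = 0.0466), while a slide block gave 0.95 (adjusted p = 0.497). Cxcl9 differed by 0.03 (adjusted p = 0.919).

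The remaining CXC ligands differed little. Cxcl12, which retains cells in marrow and lymphoid tissue through Cxcr4, was at -7.00 to -6.73 on the 7 arrays, with a difference of -0.04. Cxcl16, the membrane-bound ligand of Cxcr6, was at -0.50 to -0.14, with a difference of -0.12. Cxcl14, Cxcl15 and Cxcl17 differed by -0.11, -0.11 and -0.10. Cxcl15 was well above background on only 2 wild-type arrays and 1 knockout array. The B cell attractant Cxcl13 was not tested, being above background on 1 wild-type and 1 knockout array.

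**Figure D3:**
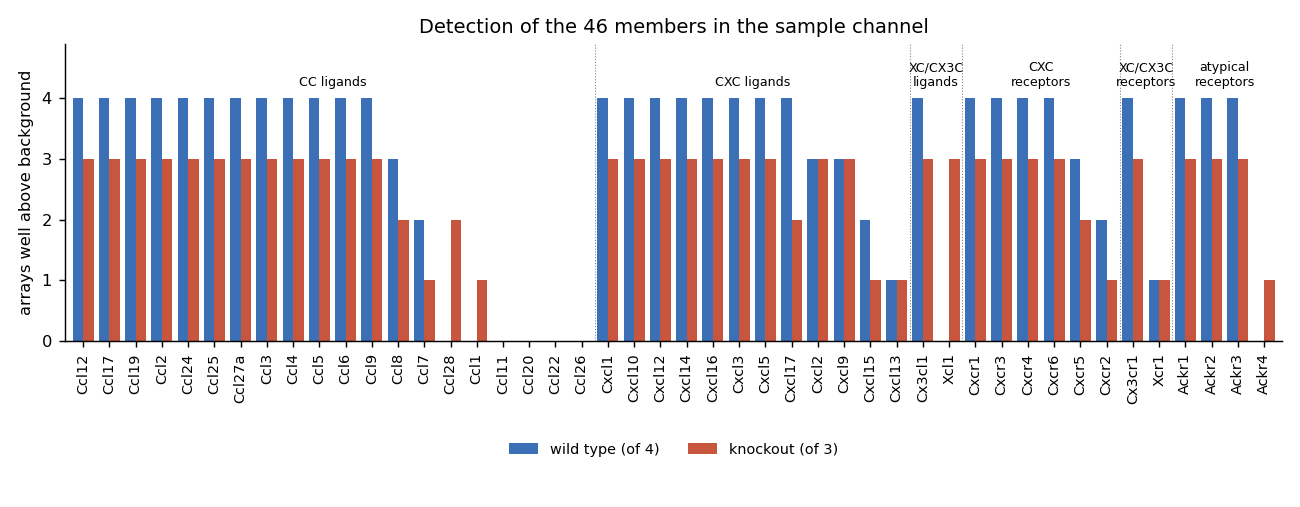
Number of arrays on which each of the 46 members was well above background in the sample channel, by genotype and role. Bars reach 4 of 4 and 3 of 3 for the 28 members measured everywhere, Xcl1 has a knockout bar only, and Ccl11, Ccl20, Ccl22 and Ccl26 have none.

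Of 14 tested CC ligands, Ccl27a rose and none fell. Ccl27a encodes a chemokine of skin keratinocytes, also known as CTACK, that attracts lymphocytes through Ccr10. Ccl27a read -0.70, -0.64, -0.26 and -0.61 on wild-type arrays 1 to 4 and 0.09, 0.06 and -0.16 on knockout arrays 1 to 3. The groups did not overlap, although wild-type array 3 came close to knockout array 3. The difference was 0.55 ± 0.12 (SE), a 1.47-fold rise (limma adjusted p = 0.0243), and slides 1 and 2 taken alone gave 0.70 and 0.65. Blocking on slide, it was 0.67 and not called (limma adjusted p = 0.0855). The other 2 probes of Ccl27a gave 0.43 (adjusted p over probes 0.0167) and 0.35 (adjusted p over probes 0.1). The call was lost without wild-type array 1, without 2, without 4, and without knockout array 1 or 2, at differences of 0.50 to 0.53 and adjusted p of 0.063 to 0.0859. Over 21 alternatives the adjusted p ran from 0.00732 to 0.139. Ccl27a overlaps Il11ra1 in the gene table and has a near-identical copy, Ccl27b, without a probe of its own, so these probes may read more than Ccl27a.

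Several CC ligands that attract monocytes and T cells varied widely between arrays. Ccl5 (RANTES), which attracts T cells and monocytes, read -0.68, -1.60, -2.94 and -0.79 on wild-type arrays 1 to 4 and -0.02, -0.30 and -0.58 on knockout arrays 1 to 3. All knockout arrays were above all wild-type arrays, narrowly so for knockout array 3 and wild-type array 1, and wild-type array 3 was far below the rest. The difference was 1.20 ± 0.47 (SE) and was not called (limma adjusted p = 0.186), and it was 0.72 without wild-type array 3 (adjusted p = 0.156) and 0.47 when blocked on slide (adjusted p = 0.786). Ccl3, which encodes MIP-1 alpha, read -1.07, -1.49, -2.10 and -1.14 on wild-type arrays 1 to 4 and -1.85, -2.24 and -2.24 on knockout arrays 1 to 3. Wild-type array 3 lay among the knockout arrays and the other wild-type arrays lay above them. The difference was -0.66 ± 0.23 (SE; limma adjusted p = 0.134). Without wild-type array 3 it was -0.88 and called (adjusted p = 0.0126), with a range of 0.0126 to 0.457 over the 21 alternatives. Ccl4 (MIP-1 beta), whose gene model overlaps that of Ccl3 in the gene table, differed by -0.56 (adjusted p = 0.293) and ran from -0.57 to 0.87. Ccl6 and Ccl9, which lie beside Ccl5 and Ccl3 in the same gene cluster, differed by -0.48 (adjusted p = 0.727) and 0.32 (adjusted p = 0.734). Ccl2, Ccl7 and Ccl12, ligands of Ccr2, differed by 0.10, 0.08 and 0.16. Ccl7 was well above background on only 2 wild-type arrays and 1 knockout array.

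Some of these genes varied widely between arrays of the same genotype. Of the 37 members, 8 were among the 5% of tested genes with the largest pooled within-group SD, and 5 of them among the top 1%: Cxcl3 (1.19), Ccl6 (0.98), Ccl5 (0.83), Cxcl10 (0.82) and Ccl9 (0.65). Ccl4 (0.46), Cxcl5 (0.43) and Ccl3 (0.39) were the others. The median pooled SD was 0.14 for the members and 0.13 for all genes tested. A further 4 members, Xcl1, Cxcr4, Ccl17 and Ccl25, lay between the percentiles 90.1 and 93 of all genes. The 8 were picked out by their values, and no test is attached. Ccl5, Cxcl10, Ccl9 and Ccl6 were all lowest on wild-type array 3, at -2.94, -2.55, -2.71 and -0.45, while Ccl4 was highest there, at 0.87. Wild-type array 1 was the highest array for Ccl6 (2.49), Ccl9 (-0.73), Ccl3, Cxcl3 and Cxcl5. Wild-type arrays 2 and 3 shared slide 3, which held no knockout array, and Ccl5, Cxcl10, Ccl9, Ccl6 and Ccl3 were lower on both than on the other wild-type arrays, and Ccl4 higher. The part of slide or of the sex of the mice in these levels was not tested.

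**Figure D4:**
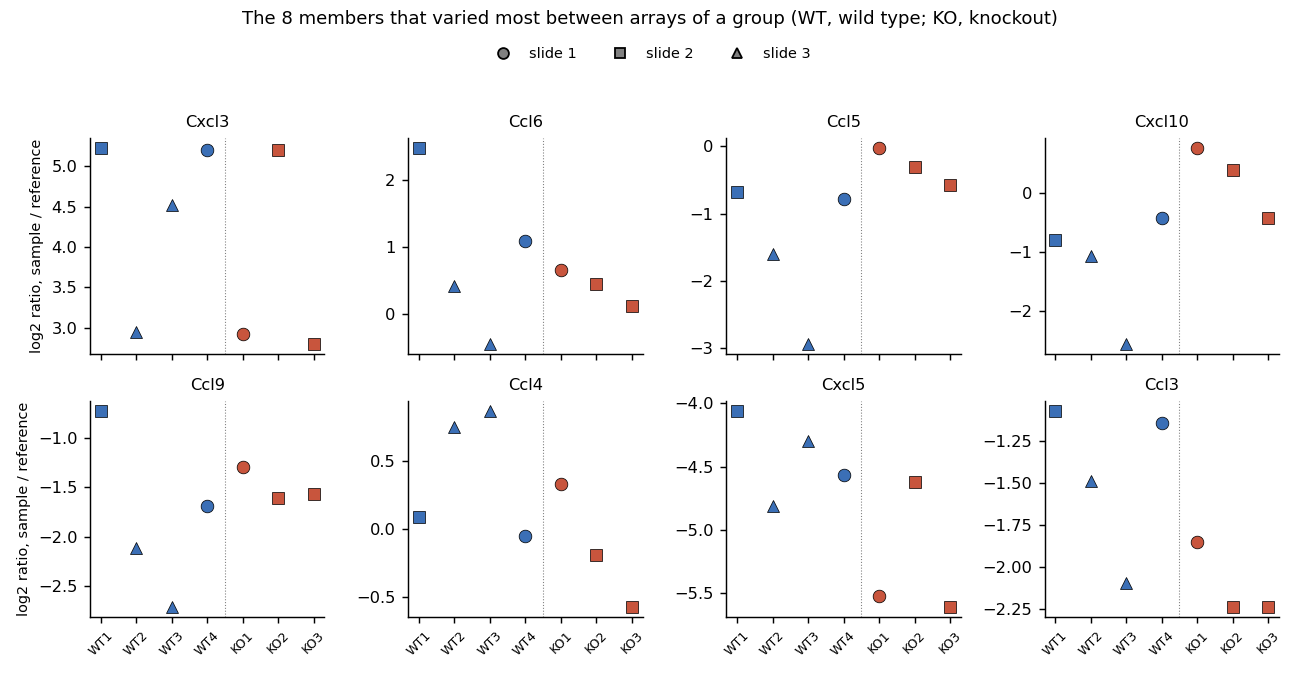
Log2 ratio of sample over reference on each array for the 8 members with the largest pooled within-group SD, with marker shape giving the slide. Cxcl3 stands at 4.52 to 5.23 on 4 arrays and at 2.80 to 2.95 on 3, and wild-type array 3 is the lowest array for Ccl6, Ccl5, Cxcl10 and Ccl9.

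Of the lymphoid tissue ligands, Ccl19, which guides Ccr7-bearing cells into lymph nodes, read 0.50, 0.61, 0.45 and 0.40 on wild-type arrays 1 to 4 and 0.29, 0.18 and 0.30 on knockout arrays 1 to 3. The knockout arrays lay below all wild-type arrays. The difference was -0.24 ± 0.08 (SE) and was not called (limma adjusted p = 0.14). A second Ccl19 probe, also above background on all 7 arrays, gave 0.02 (adjusted p over probes 0.938), so the probes disagreed. The type 2 ligands, which attract Ccr3-, Ccr4- or Ccr8-bearing cells, showed no call. Ccl17, a Ccr4 ligand, ran from -0.26 to 0.55 with a difference of 0.19, and Ccl24 (eotaxin-2) and Ccl8 differed by 0.03 and 0.06. Ccl8 was well above background on 3 wild-type and 2 knockout arrays. Ccl11 (eotaxin-1), Ccl22 and Ccl26 were well above background on no array, and Ccl1 was on 1 knockout array. Of the mucosal ligands, Ccl25, the Ccr9 ligand, differed by 0.10. Ccl28, the other ligand of Ccr10, was above background on 0 wild-type and 2 knockout arrays and was not tested, and Ccl20, the Ccr6 ligand, was above background on no array.

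Of 6 tested CXC receptors, Cxcr3 rose and none fell. Cxcr3 is the receptor of type 1 lymphocytes for Cxcl9 and Cxcl10. It read -0.41, -0.36, -0.50 and -0.45 on wild-type arrays 1 to 4 and 0.09, -0.04 and -0.24 on knockout arrays 1 to 3. The wild-type values were tight, and all 3 knockout arrays lay above them. The difference was 0.37 ± 0.09 (SE), a 1.29-fold rise (limma adjusted p = 0.046). Slides 1 and 2 taken alone gave 0.55 and 0.27, and blocking on slide it was 0.39 and not called (limma adjusted p = 0.251). The call was lost in 10 of 21 alternatives, with adjusted p from 0.0187 to 0.251 over all of them. Leaving out any array except knockout array 3 ended it: the difference was 0.38, 0.39, 0.35 and 0.36 without wild-type arrays 1 to 4 (adjusted p of 0.0887, 0.0776, 0.114 and 0.116) and 0.29 and 0.36 without knockout arrays 1 and 2 (0.115 and 0.126). The scanner's log ratio gave a larger value, 0.71 (adjusted p = 0.0382).

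Cxcr6, a receptor for Cxcl16 found on ILCs and memory T cells, was far above the reference on every array, at 8.12 to 8.88, and differed by 0.24 (adjusted p = 0.38). Its second probe ran from 7.99 to 8.52 and differed by 0.08 (adjusted p over probes 0.812). In the sample channel alone the difference of the first Cxcr6 probe turned to -0.09, while the second probe gave 0.29. Cxcr4, the Cxcl12 receptor, ran from -1.48 to -0.64 and differed by -0.06. Cxcr5, the Cxcl13 receptor, and Cxcr1 differed by 0.02 and -0.01. These 2 signs, like other differences this near 0, changed with the processing.

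The fractalkine receptor Cx3cr1 differed by -0.07 (a second probe by -0.13), and Xcr1, the receptor for Xcl1, was above background on 1 wild-type and 1 knockout array and was not tested. Of the atypical receptors, Ackr3, which scavenges Cxcl12, read -3.75, -3.81, -3.86 and -3.81 on wild-type arrays 1 to 4 and -3.72, -3.50 and -3.53 on knockout arrays 1 to 3. The groups did not overlap, with knockout array 1 close to the wild-type arrays. The difference was 0.23 ± 0.08 (SE) and was not called (limma adjusted p = 0.163). Ackr1 and Ackr2 differed by -0.05 and 0.08, and Ackr4 was above background on 1 knockout array.

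Ligands and the receptors they bind can be set side by side. Ccr10, the receptor of Ccl27a, rose from -1.39 ± 0.12 (SD, n = 4) to 3.94 ± 0.33 (SD, n = 3), a difference of 5.32 (limma adjusted p = 2.08e-07), against 0.55 for Ccl27a. Ccr7, the receptor of Ccl19, rose by 2.59 (limma adjusted p = 3.58e-05), while the Ccl19 probes read -0.24 and 0.02. Cxcr3 rose by 0.37 with its ligands Cxcl10 and Cxcl9 at 1.45 and 0.03, neither called. Cxcr6 and Cxcl16 stood at 0.24 and -0.12, also uncalled.

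Beyond the chemokines and these receptors, 57 genes of chemokine receptor signalling and processing were listed, among them the CC receptors, G proteins, receptor kinases, arrestins, RGS proteins and ligand-cutting enzymes. Of 56 tested, 9 rose and 8 fell, or 30.4% against 7.53% of all genes. The list was drawn up with results of these data known, so its share is a description. The CC receptors and receptor-like genes gave 4 rises and 1 fall of 11. Besides Ccr10 and Ccr7, the members with the smallest p were Grk3, a receptor kinase that rose by 1.30 (limma adjusted p = 0.000669), and Arrb1, a beta-arrestin, which fell by 1.09 (adjusted p = 0.00249). Rgs10 and Rgs18, which speed the shutdown of G alpha subunits, fell by 0.78 and 1.05 (adjusted p = 0.003 and 0.00892). Wipf1, a partner of WASP in actin assembly, fell by 0.73 (adjusted p = 0.00714), and Rasgrp2, which activates Rap1 for integrin adhesion, rose by 0.68 (adjusted p = 0.00807). Dpp4, the peptidase that clips Cxcl10 and Cxcl12, differed by 0.48 (adjusted p = 0.159), and none of the 6 modifying enzymes was called. With slide as a block 3 of the signalling genes were called higher and 3 lower, namely Ccr10, Ccr7, Grk3, Arrb1, Wipf1 and Rgs18, whereas Rgs10 (adjusted p = 0.0675) and Rasgrp2 (0.0811) were not. That block called 1.89% of all genes. With wild-type array 4 and knockout array 3 left out together, 6 were called higher and 3 lower, and Rgs18 was lost (-0.89, adjusted p = 0.0663). Of all genes, 4.49% were then called.

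**Figure D5:**
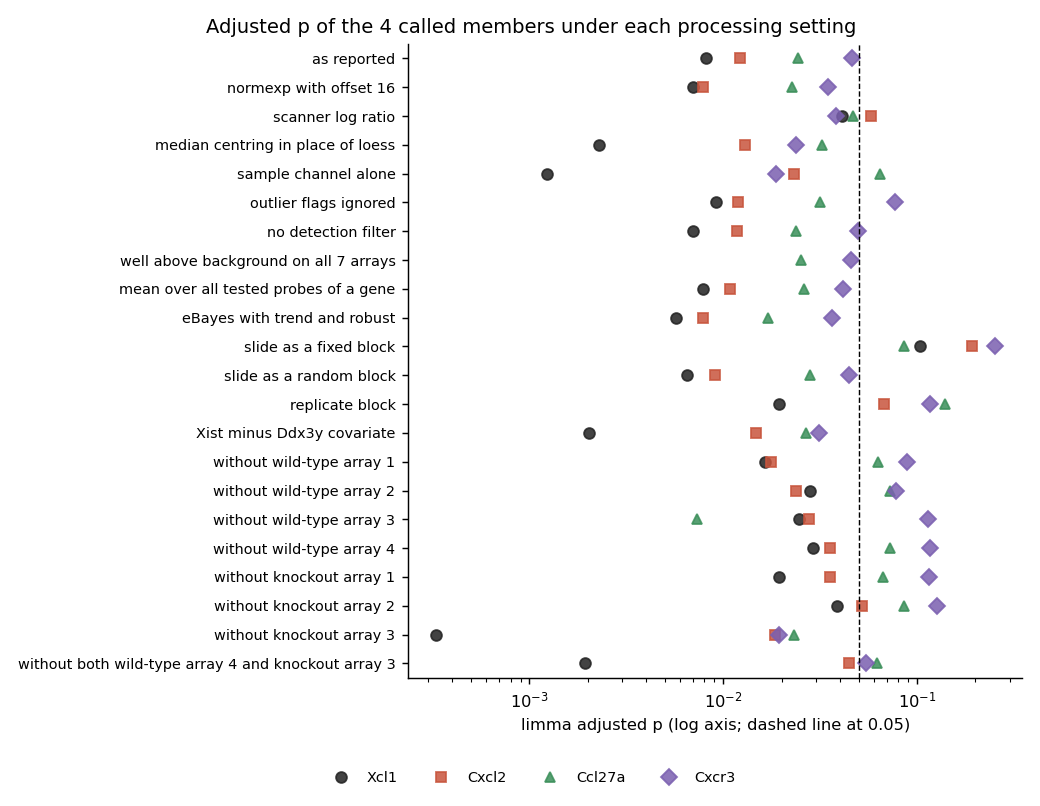
Adjusted p from limma on a log axis for Xcl1, Cxcl2, Ccl27a and Cxcr3 as reported and under each of 21 alternative settings, with a dashed line at 0.05. All 4 genes lie right of the line with slide as a fixed block, and Cxcr3 lies right of it in 10 settings. Slide as a fixed block called 1.89% of all genes, against 7.53% as reported.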

How the data were processed

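The authors deposited scanner files that give intensity per spot, in median signals, and a background-subtracted, dye-normalized log10 ratio of Cy5 (the ILC2 sample) over Cy3 (the reference), written by Agilent Feature Extraction 11.0.1.1 per the file headers, against 10.7.3.1 in the submitters' processing notes. Every array ran in this dye orientation, per the labels. The deposited series table holds the same ratios in log2, matching to within 0.001 on each array, with column medians of 0.163 to 0.254, which settles its scale and direction, without further centring.

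Spots flagged as outliers or with non-uniform background (2597) were left out. Intensities were corrected with normexp (offset 50) and normalized by loess within arrays, giving control spots a weight of 0, and spots of a probe were averaged (limma 3.58.1, R 4.3.3). A probe counted as well above background on an array where at least a share of 0.5 of its kept spots did. The probe with the highest mean sample signal stood for a gene. Probes were named through their accessions in RefSeq (GRCm38.p6): 26581 had 1 gene, 0 had several and 12848 were unnamed. The array design uses mm9, so gene coordinates are given for RefSeq promoters only. Groups were compared over 25347 genes (30293 probes) with lmFit and eBayes, Benjamini-Hochberg adjusted at 0.05, without a block. The code was tested on simulated data. The dim ratios of normexp are drawn towards 0 by the offset.

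All scans of a slide share a scan time, so slide and scan are the same batch. Same-numbered wild-type and knockout arrays deviated from their group means with correlations of 0.0361, 0.24 and 0.021, and the main fit did not pair them. Wild-type and knockout arrays of the same number were alike in Xist minus Ddx3y. The values were -1.05 and -1.75 for number 1, -0.94 and -1.33 for number 2, and 6.54 and 7.61 for number 3. Whether the numbers pair the samples is therefore not settled. Members and lists were chosen with earlier results of these data known. Values on every array are given for the called members and the 12 with the smallest p, and up to 8 called signalling genes are named. Beyond these, the widely varying members were described after their values were seen. The 21 alternatives covered background correction, normalization, the scanner log ratio, the sample channel, filters, probes, variance model, slide, replicate number, sex and arrays left out. Promoters come from RefSeq. Figures were drawn with matplotlib 3.10.9.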

Additional observations from a re-analysis of the deposited data

Results flagged for a closer look

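The wild-type values of Cx3cl1 held an array that stood apart. On wild-type array 3 the log2 ratio was -6.57, against -6.33 to -6.29 on the other 3 wild-type arrays, and the gap to its nearest neighbour was 0.856 of the range of the 4, above Dixon's critical value for 4 samples. Chance flags about 1 in 20 groups, and the wild-type group of 37 members was examined, the knockout group of 3 being too small.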

How the results depend on the processing

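The number of members called higher, 4, was 3 to 5 under most alternatives. It was 2 when genes had to be well above background on all 7 arrays, which removed Xcl1 and Cxcl2 from testing. With the replicate number as a block it was 2 (Xcl1 at an adjusted p of 0.0193 and Cxcl10 at 1.71, adjusted p = 0.00521). With slide as a fixed block it was 0. In that order, these settings called 8.2%, 4.26% and 1.89% of all genes, against 7.53% as reported. Slide 3 held no knockout array, so the fixed block compares the groups on slides 1 and 2 only. Slide as a random block kept the same 4 members called higher, with 8.37% of all genes called. Leaving out an array gave 1 to 5 called higher and 0 to 1 called lower, the latter being Ccl3 without wild-type array 3 and Cxcl5 without knockout array 2. The share of all genes called was then 4.98% to 7.49%. Signalling genes called higher numbered 5 with the scanner's log ratio and 3 with the slide block, against 9. Those called lower numbered 5 with the scanner's log ratio, 5 with median centring, 3 with the slide block, 3 with the replicate block and 3 without wild-type array 4 and knockout array 3 together, against 8, and 5 to 7 when an array was left out. Of all genes, 5.27% were called with the scanner's log ratio, 6.37% with median centring and 4.49% without those arrays together. The cause of these changes was not tested. Under the replicate block the calls of Cxcl2 (limma adjusted p = 0.0679), Ccl27a (0.139) and Cxcr3 (0.117) were lost. Whether the replicate numbers pair the samples is not settled, and the reason for this loss was not tested.

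Signs turned only for members that were not called. Apart from Cxcr6, whose difference was 0.24, they had differences near 0 or wide spread. In the sample channel alone the difference was -0.09 for Cxcr6, -0.01 for Ackr2 and Ccl8, 0.04 for Ackr1, -0.06 for Ccl24, -0.05 for Cxcl9 and -0.29 for Cxcr5. With the scanner's log ratio it was 0.03 for Cxcl17, 0.01 for Cxcl14, 0.00 for Cxcl12 and 0.04 for Cxcr4. With slide as a fixed block it was 0.02 for Cxcl14, -0.01 for Ccl2, -0.33 for Ccl9, 0.17 for Cxcr4 and -0.06 for Cxcl9, and as a random block 0.02 for Cxcr1. Without outlier flags it was -0.24 for Ccl7, -0.04 for Ccl8, -0.15 for Ccl24 and 0.02 for Cxcr1. Median centring gave 0.01 for Cxcl12, -0.07 for Cxcl9 and -0.12 for Cxcr5, and the replicate block 0.00 for Ccl8 and 0.05 for Cxcr1. Without wild-type array 4 and knockout array 3 together it was -0.03 for Ccl7 and Ccl24, -0.01 for Ccl8, 0.00 for Cx3cr1, 0.04 for Cxcl12 and 0.05 for Cxcr1. Leaving out an array in turn gave ranges that met or crossed 0: -0.92 to 0.06 for Ccl6, 0.00 to 0.10 for Ccl8, -0.16 to 0.02 for Cx3cr1, -0.05 to 0.33 for Ccl25, -0.01 to 0.07 for Ccl24, -0.23 to 0.05 for Cxcr4, -0.05 to 0.11 for Cxcl9, 0.00 to 0.03 for Cxcr5 and -0.06 to 0.05 for Cxcr1. Members with a dim sample or reference signal, such as Xcl1, Cxcl2 and Cxcl3, are limited by background.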
